A study of Mus musculus with 92 samples.

Results

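The general transcription machinery of RNA polymerase II was followed in single blastomeres of 8-cell mouse embryos. Its members are the 87 genes, out of 7886 in the deposited count table, whose symbols begin with Polr2, Med, Taf, Gtf2, Supt, Tcea or Nelf followed by the usual subunit number or letter, or belong to the Ell family. They comprise 13 RNA polymerase II (Pol II) subunits, 29 Mediator subunits, 11 subunits of TFIID, 5 of the coactivator SAGA, 7 of the general factors A, B, E and F, 5 of TFIIH and 11 elongation factors. The symbol rule also takes in the 4 subunits of SL1, a factor of RNA polymerase I, and 2 genes of the TFII-I family, which are sequence-specific factors rather than parts of the basal machinery. All 87 entered the edgeR tests reported here, because the filter on low counts removed 0 rows. Each row of the table was detected in at least 27.2% of cells, so factors transcribed more rarely were not analysed here.

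The embryos were wild-type C57BL/6N, the sample titles mark all of them IVF (in vitro fertilization), and all had been injected as zygotes. The 4 labels compared are as follows. Let7d embryos received the microRNA let-7d, Let7e embryos received let-7e, mi699a-5p embryos received a microRNA that the labels call by that name, and NC embryos received a negative control. No uninjected embryo is among the groups used here, so what the act of injection does is common to all of them. Cells carry a mouse id in the labels, and there were 3 ids with 18 cells for Let7d, 4 with 20 for Let7e, 4 with 21 for mi699a-5p and 3 with 22 for NC. What a mouse id stands for, an embryo, a mother or a donor, is not stated. In 3 of the 14 mouse ids, Let7e replicate 1, mi699a-5p replicate 4 and NC replicate 2, some cells had over 20 CPM of Xist and others over 20 CPM of Y-linked genes, so a mouse id can hold cells of more than 1 embryo. Values of a mouse id are sums over its 2 to 8 cells, the mouse id is the replicate, and p-values measure the spread between mouse ids.

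Pol II transcribes the protein-coding genes. TFIID, whose TBP-associated factors (TAFs) contact the promoter, and the general factors place the polymerase at the start site, TFIIH opens the DNA and phosphorylates the tail of the largest subunit, and Mediator passes signals from enhancer-bound factors to the assembled complex. After initiation, the factors DSIF and NELF hold the polymerase close to the promoter, and further elongation factors carry it through chromatin. In the mouse embryo the main wave of zygotic transcription starts at the 2-cell stage, so the blastomeres studied here combine transcripts inherited from the oocyte with newly made ones. MicroRNAs of the let-7 family pair through their seed, bases 2 to 8, with sites in the 3′ UTR of target mRNAs and lower the output of those mRNAs.

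The mature strands of the injected let-7 microRNAs are shown because they define which members carry a matching site. Capitals mark the seed. The sequences are from RefSeq, build GRCm38.p6, where mmu-let-7d-5p lies at chr13:48536078-48536099 on the minus strand and mmu-let-7e-5p at chr17:17830366-17830387 on the plus strand.
mmu-let-7d-5p: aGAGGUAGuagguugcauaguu
mmu-let-7e-5p: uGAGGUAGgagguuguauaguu
They share the seed GAGGUAG and differ at 3 of 22 positions. The sequence of mi699a-5p was not used here.

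A perfect match to bases 2 to 8 of this seed occurred in the longest annotated 3′ UTR of 3 of the 87 members (3.45%), against 802 of 7574 rows of the table with an annotated 3′ UTR (10.6%). The median 3′ UTR of a member was 829 bases long, against 1164 bases over all rows. The 3 members are Med8 of the Mediator head, Med10 of the Mediator middle and Taf13 of TFIID. Their sites are shown on GRCm38 with 30 bases of transcript each, all on the plus strand. Capitals mark the match to the seed and, in Taf13, the A that follows it.
Med8, chr4:118414991-118415020: ggtgataatacCTACCTCgtagggttgttg
Med10, chr13:69815773-69815802: tggcctggcccCTACCTCctgtttccatca
Taf13, chr3:108582665-108582694: agcagttaaagCTACCTCActctatataaa
The match extends to 8 bases in Taf13 and to 7 in the other 2. A match of letters is a description of the transcript and was not tested as a working site. The search was added after the fold changes had been seen.

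A cell carried 1575609 to 4950404 reads, with 5562 to 7497 of the 7886 genes detected. Of the 14 blastomere markers listed, 13 were measured, and they summed to 6764 to 9978 CPM (a gene's reads as parts of 1000000 library reads) in every mouse id, whereas none of the listed cumulus, blood, stromal or sperm genes was in the table. The members together took 11362 ± 162 CPM in Let7d, 10761 ± 534 CPM in Let7e, 11348 ± 453 CPM in mi699a-5p and 10334 ± 1355 CPM in NC (mean ± SD over mouse ids). NC was the most uneven group, with 9611, 11897 and 9493 CPM in its replicates 1, 2 and 3. Reads on ribosomal RNA rows, which count among the library reads, averaged 132831 ± 35515 CPM in NC and 59246.5 ± 26150 CPM in Let7d. They averaged 87191 ± 37162.5 CPM in Let7e and 99639 ± 19829 CPM in mi699a-5p. Within NC they took 147238 CPM in replicate 1, 92376 CPM in replicate 2 and 158879 CPM in replicate 3. Leaving these rows out before normalization called no further member.

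Most members were expressed above the typical gene of these cells. Their median level was 25.9 CPM per kilobase of exon, against 9.96 over all rows of the table, each gene being averaged over the 14 mouse ids. All levels compared between genes below are in CPM per kilobase. The highest member was Supt4a, the small subunit of the pausing factor DSIF, on chromosome 11 at 87737552 to 87743623 of GRCm38, with 246 ± 50.1 (SD, n = 14). The lowest was the TFII-I relative Gtf2ird1 at 1.33.

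Among Pol II subunits the levels spanned from 195.9 ± 27.4 for Polr2e to 5.72 ± 2.098 for Polr2a. Polr2e encodes a small subunit that RNA polymerases I, II and III share, and Polr2a the largest subunit, which bears the catalytic site and the C-terminal tail. Polr2a lay on the minus strand of chromosome 11 at 69733997 to 69758637. Polr2h, another shared subunit, was close to Polr2e at 184.5 ± 37.4, a difference smaller than the SD of either gene. With the longest transcript as length their order reversed, with 293.1 for Polr2h and 217.7 for Polr2e. Polr2b, which forms the active centre together with Polr2a, stood at 68.6 ± 17.9. The median of the 13 subunits was 76.4. Polr2a was thus the lowest subunit by level per length, at the 35.8th percentile of all rows. By group, Polr2a averaged 5.82 ± 0.767 in Let7d, 5.90 ± 1.09 in Let7e, 4.63 ± 1.86 in mi699a-5p and 6.86 ± 4.09 in NC. The NC spread came from replicate 3, where the TMM-scaled level not divided by length was 81.7 CPM, against 30.3 and 33.3 CPM in NC replicates 1 and 2.

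**Figure D1:**
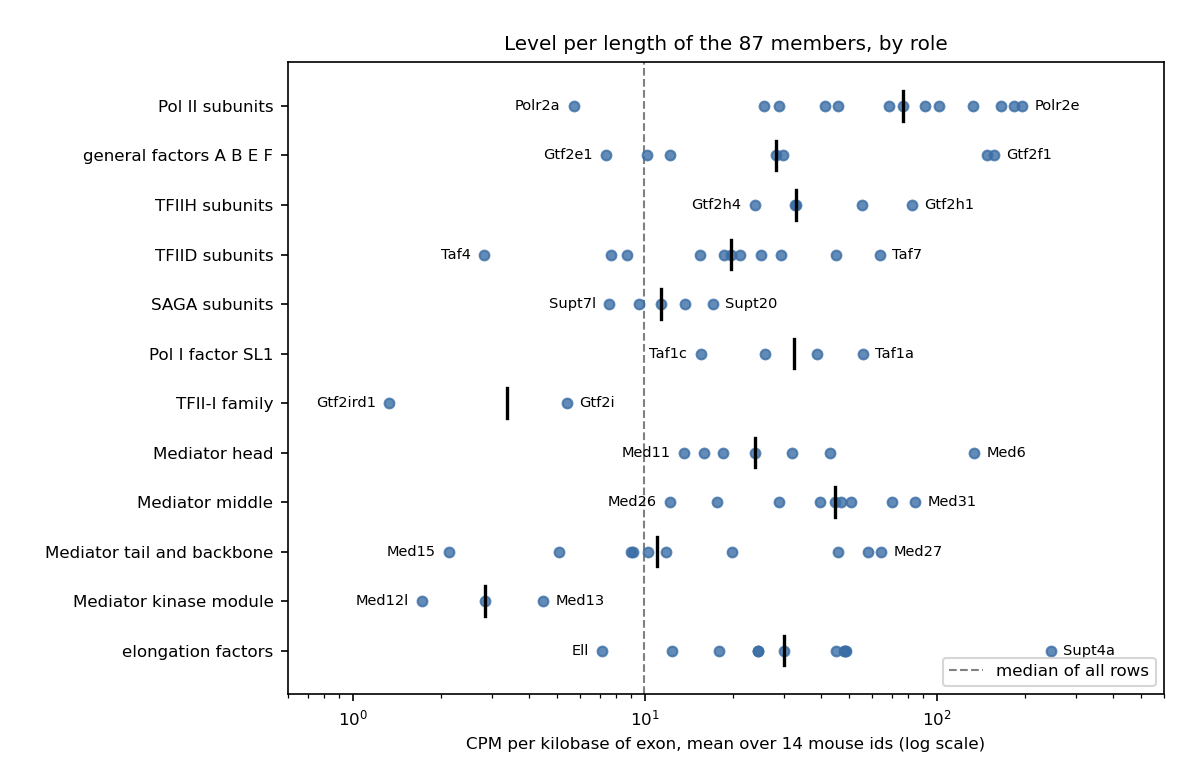
Level of each of the 87 members in CPM per kilobase of exon (log scale, mean over 14 mouse ids), in 1 row per role, with black bars for the median of the role and a dashed line for the median of all rows. Polr2a at 5.72 stands apart from the other Pol II subunits, and Supt4a at 246 is the highest point.

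The general factors fell into separate levels. Gtf2f1 and Gtf2f2, the subunits of TFIIF that ride with the polymerase, reached 157.6 ± 37.0 and 148.8 ± 25.5 CPM per kilobase, whereas Gtf2b, the single subunit of TFIIB, stood at 10.2 ± 4.88 and Gtf2e1, a subunit of TFIIE, was lowest at 7.38. TFIIH subunits lay between Gtf2h4 at 23.9 ± 8.43 and Gtf2h1 at 82.0 ± 21.9. TFIID subunits ranged from Taf4 at 2.82 ± 1.61 to Taf7 at 63.9 ± 21.6, with a median of 19.8. In SAGA the lowest was Supt7l at 7.57 and the highest Supt20 at 17.1. The SL1 genes ran from Taf1c at 15.6 to Taf1a at 55.8, and Gtf2i, the founding TFII-I gene, was at 5.40 ± 2.26.

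Mediator levels differed between its modules. The middle module had a median of 44.8 CPM per kilobase, with Med26 lowest at 12.2 and Med31 highest at 84.3. The head had a median of 23.9, with Med11 lowest at 13.6 and Med6 highest at 134.3 ± 32.1. The tail and backbone subunits had a median of 11.1, with Med15 lowest at 2.14 and Med27 highest at 64.6. The 3 members in the kinase module, which docks reversibly and restrains Mediator, were all low. They were Med12l at 1.73, Med13l at 2.83 and Med13 at 4.49. The module's other measured genes, Ccnc, Cdk8 and Cdk19, fall outside the symbol rule, and their level per length is not given here. In NC they averaged 133, 67.8 and 14.5 TMM-scaled CPM, not divided by length. Of the elongation factors, Ell, which suppresses pausing of the moving polymerase, was lowest at 7.16.

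For 4 pairs of related genes both partners were measured. Taf4b, the germ cell relative of the TFIID subunit Taf4, had 29.2 ± 11.1 CPM per kilobase and exceeded Taf4, at 2.82 ± 1.61, in 14 of 14 mouse ids, with a median ratio of 9.77. Taf4 ranged from 0.246 to 5.30 and Taf4b from 11.9 to 49.2, so the ranges did not overlap. Taf6 of TFIID, at 21.1 ± 8.86, exceeded its SAGA counterpart Taf6l, at 9.59 ± 3.34, in 13 of 14. Med13, at 4.49 ± 1.72, exceeded Med13l, at 2.83 ± 0.681, in 11 of 14. This order depended on the length used. With the longest transcript as length the means were 4.62 for Med13 and 4.70 for Med13l, while the other pairs kept the order of their means. Ell2, at 12.4 ± 2.56, exceeded Ell, at 7.16 ± 2.46, in 13 of 14. These orders are descriptions, and reads shared by near-identical stretches of related genes could have been divided between them by the authors' counting.

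No member differed between the injected groups and NC beyond the spread between mouse ids after adjustment over all rows. At an adjusted p under 0.05 edgeR's quasi-likelihood test called 0 of 87 members in Let7d against NC, where 0.0127% of all rows were called. It called 0 in Let7e against NC, in mi699a-5p against NC, in Let7e against Let7d and in the test of any difference among the 4 groups, and 0% of all rows in each of these. DESeq2 called 0 members too, but in Let7d against NC it gave an adjusted p for only 48 of the 87, leaving out Gtf2i and Nelfb among others, and called 0.084% of the rows that had one. It gave one for 87 members in Let7e against NC (0% of rows called), 77 in mi699a-5p against NC (0.16%), 87 in Let7e against Let7d (0.102%) and 87 in the test of any difference (0.194%). At an unadjusted p under 0.05 DESeq2 had 2, 4, 7, 2 and 5 members in this order. For edgeR the number at an unadjusted p under 0.05 was 2 higher and 0 lower in Let7d against NC, where the shares over all rows were 2.65% and 2.04%. In Let7e against NC it was 2 higher and 2 lower, beside 2.33% and 1.69% of all rows. In mi699a-5p against NC it was 4 higher and 2 lower, beside 3.2% and 2.31%. In Let7e against Let7d it was 0 higher and 2 lower, beside 2.79% and 2.6%. Among 87 members these counts are within a few genes of what the shares over all rows would give.

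**Figure D2:**
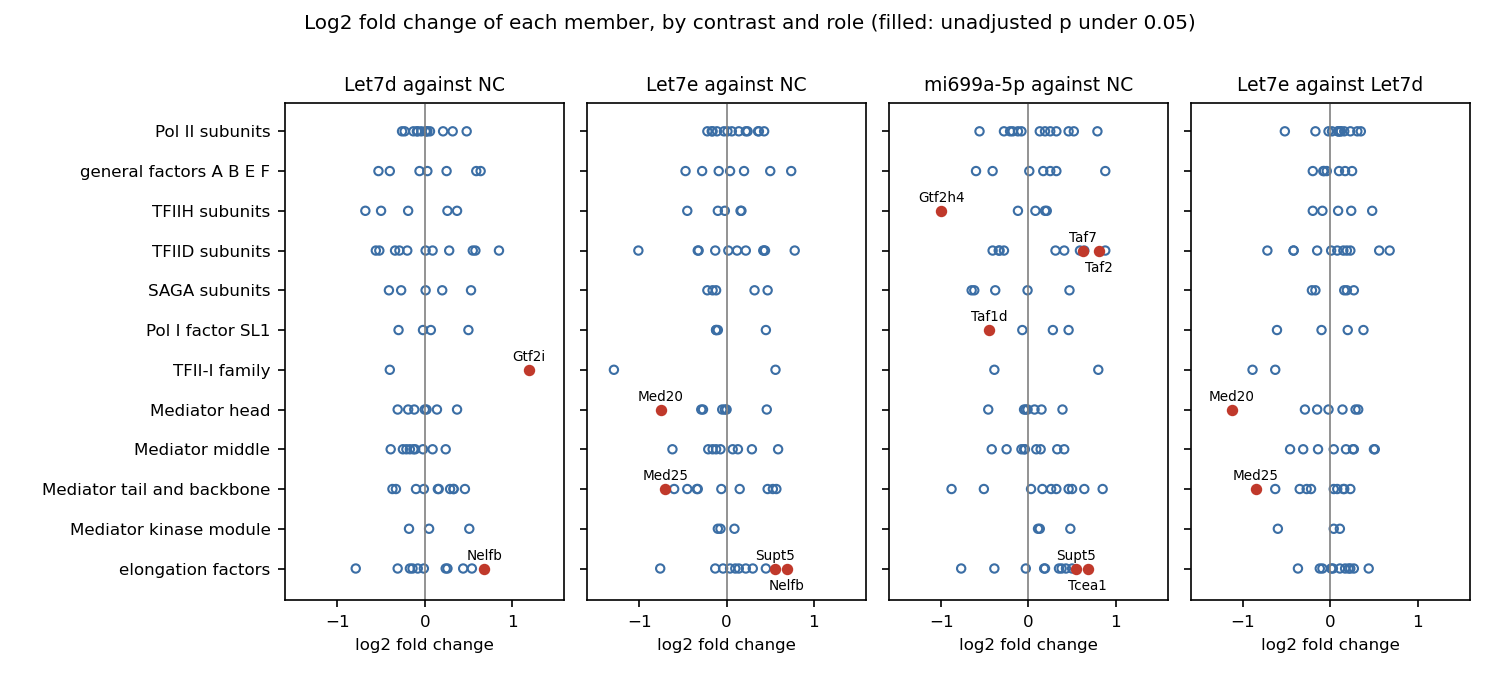
Log2 fold change of each member in the 4 contrasts, in 1 row per role, with filled and named points for members at an unadjusted p under 0.05 in edgeR. Most points lie between -0.5 and 0.5, and 0 members passed the adjusted threshold in any panel.

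The precision of these nulls differed between members. The 95% confidence interval of the log2 fold change lay wholly within 1 of 0, a 2-fold change either way, for 45 of 87 members in Let7d against NC, 49 in Let7e against NC, 43 in mi699a-5p against NC and 57 in Let7e against Let7d. For the others a change beyond 2-fold was not excluded by the interval. Over all rows the share with so narrow an interval was 29.3%, 35.4%, 32.9% and 33.3% in the same order. Median log2 fold changes of the members were 0 in Let7d against NC and 0 in Let7e against NC, beside 0.01 and 0.02 over all rows. They were 0.14 in mi699a-5p against NC and 0.08 in Let7e against Let7d, beside 0.04 and 0.01. The contrasts with NC share the 3 NC mouse ids, so their values are not independent of each other.

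Supt5 and Nelfb were the higher members with the smallest p in Let7e against NC. The values of their partners lay on both sides of NC. Nelfcd of NELF averaged 54.96 ± 8.871 CPM per kilobase in Let7d and 52.76 ± 7.82 in mi699a-5p, against 46.62 ± 16.81 in NC (SD). In Let7e Nelfcd averaged 42.67 ± 14.82. Nelfa, also of NELF, averaged 60.26 ± 39.58 in mi699a-5p and 45.43 ± 5.557 in Let7e, against 42.52 ± 7.004 in NC. In Let7d Nelfa averaged 40.27 ± 2.929. Against NC the log2 fold change of the DSIF partner Supt4a was -0.31 ± 0.26 for Let7d, -0.04 ± 0.24 for Let7e and -0.03 ± 0.24 for mi699a-5p, and that of the NELF subunit Nelfe was -0.17 ± 0.29, 0.04 ± 0.27 and -0.39 ± 0.27 (SE). Supt5, the large subunit of DSIF on the minus strand of chromosome 7 at 28314891 to 28338746, had 260.2, 275 and 313 TMM-scaled CPM (CPM after edgeR's correction for library composition) in the Let7d mouse ids. It had 280.3, 324, 342 and 274 CPM in Let7e and 281, 342, 309 and 284 CPM in mi699a-5p, against 145, 246 and 236 CPM in NC. Each of the 11 values from injected microRNA groups was above each of the 3 NC values, and NC replicate 1 was the lowest. The log2 fold change was 0.44 ± 0.22 in Let7d against NC (SE, edgeR unadjusted p = 0.0654, adjusted p = 1). It was 0.55 ± 0.21 in Let7e against NC (edgeR unadjusted p = 0.0181, adjusted p = 0.999) and 0.54 ± 0.21 in mi699a-5p against NC (edgeR unadjusted p = 0.019, adjusted p = 0.858). Without NC replicate 1 these fell to 0.23, 0.34 and 0.34.

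Nelfb, a subunit of NELF, had 84.99, 89.8 and 112 CPM in Let7d and 83.3, 95.4, 117 and 89.0 CPM in Let7e. The mi699a-5p mouse ids had 84.3, 72.5, 64.8 and 100.1 CPM, against 70.5, 67.1 and 41.3 CPM in NC. Let7d and Let7e did not overlap NC, while mi699a-5p did. The log2 fold change was 0.68 ± 0.28 in Let7d against NC (edgeR unadjusted p = 0.0274, adjusted p = 0.986) and 0.69 ± 0.27 in Let7e against NC (edgeR unadjusted p = 0.0191, adjusted p = 0.999). Without NC replicate 3 they were 0.47 and 0.48, and in limma the Let7e value was 1.14. Neither passed the adjusted threshold.

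**Figure D3:**
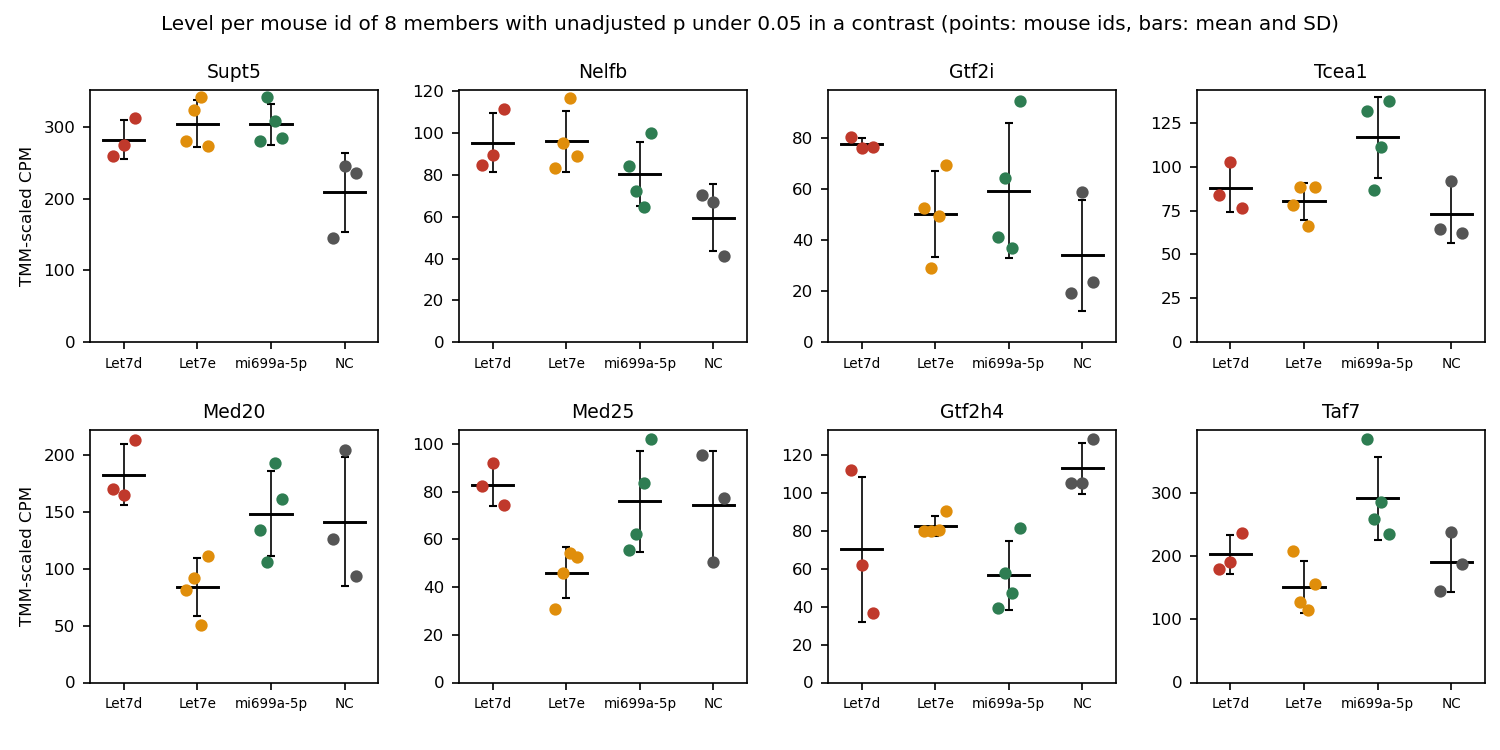
TMM-scaled CPM of 8 of the 10 members with an unadjusted p under 0.05 in a contrast (all but Taf2 and Taf1d), in each mouse id, by group (points), with the mean and SD (bars). Supt5 is lowest in the 3 NC mouse ids, Med20 and Med25 are lower in Let7e than in Let7d, and Gtf2h4 is lower in the 4 mi699a-5p mouse ids than in NC. None of the 8 passed an adjusted p of 0.05.

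The groups did not overlap for 6 higher and 3 lower members in Let7d against NC, where 6% and 5.96% of all rows were separated in this way. The other contrasts had 2 higher and 2 lower in Let7e against NC (2.78% and 2.84% of all rows), 5 higher and 2 lower in mi699a-5p against NC (4.51% and 3.87%), and 0 higher and 5 lower in Let7e against Let7d (3.12% and 2.95%).

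In Let7d against NC the lowest p belonged to Gtf2i. It had 80.4, 75.8 and 76.2 CPM in Let7d, against 19.4, 58.9 and 23.4 CPM in NC. Let7d was narrow and lay above NC, in which replicate 2 stood apart from the other 2. The log2 fold change was 1.19 ± 0.45 with a 95% interval from 0.24 to 2.14 (edgeR unadjusted p = 0.0167, adjusted p = 0.986). It was 0.91 without NC replicate 1, 1.86 without NC replicate 2 and 2.08 in limma on the mean log2(CPM + 1) of cells. The lower members with the smallest p were Taf13 at -0.52 ± 0.26, the TFIIH subunit Gtf2h4 at -0.68 ± 0.35 and the small TFIIH subunit Gtf2h5 at -0.50 ± 0.27, none with an unadjusted p under 0.05. Gtf2h4 was -1.19 without Let7d replicate 1, -0.37 without Let7d replicate 3 and -0.33 once the Y-linked level was a term.

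In Let7e against NC the lower members with the smallest p were Mediator subunits. Med20, a head subunit on chromosome 17 at 47611582 to 47624418, had 81.1, 91.6, 50.5 and 111 CPM in Let7e, against 126, 204 and 93.5 CPM in NC. The groups overlapped, and NC replicate 2 was the highest. Let7e differed from NC by a log2 fold change of -0.75 ± 0.30 (edgeR unadjusted p = 0.023, adjusted p = 0.999), and -0.39 without NC replicate 2. Med25, a tail subunit that receives activators, gave -0.70 ± 0.30 (edgeR unadjusted p = 0.0339, adjusted p = 0.999), also with overlapping groups. The tail subunit Med24 gave 0.57 ± 0.29 and Ell -0.76 ± 0.41 (-0.35 in limma), neither with an unadjusted p under 0.05.

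The same pair of Mediator subunits led the contrast of Let7e against Let7d, which uses no NC sample. Med20 had the 81.1, 91.6, 50.5 and 111 CPM given above in Let7e, against 170.1, 164 and 214 CPM in Let7d. The groups did not overlap. On the log2 scale the difference was -1.13 ± 0.30 with an interval from -1.76 to -0.49 (edgeR unadjusted p = 0.00162, adjusted p = 0.845), the lowest unadjusted p of any member in the 4 contrasts. Med25 had 30.8, 46.0, 54.4 and 52.5 CPM in Let7e, against 82.6, 91.95 and 74.3 CPM in Let7d. These groups did not overlap either, and the log2 fold change was -0.85 ± 0.30 (edgeR unadjusted p = 0.0115, adjusted p = 0.874). Both contrasts share the Let7e samples. Neither the 3′ UTR of Med20 nor that of Med25 held a let-7 seed match. An annotated gene on the same strand, Gm20517, and a pseudogene on the other strand overlap the exons of Med20, and their reads could not be told apart from those of Med20. The other members named by the smallest p in this contrast were Gtf2h5 at 0.48 ± 0.25, Ell2 at 0.44 ± 0.24, the TFIID subunit Taf8 at 0.68 ± 0.41 and the SL1 subunit Taf1a at -0.61 ± 0.30. Taf8 was 1.08 without Let7d replicate 1, 0.34 without Let7e replicate 3 and 0.18 with the Y-linked term, and Ell2 was 0.29 without Let7d replicate 1.

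In mi699a-5p against NC the lowest p belonged to Gtf2h4, which anchors the helicase XPB in TFIIH and lies on the minus strand of chromosome 17 at 35667730 to 35673739. It had 39.2, 57.9, 47.3 and 81.5 CPM in mi699a-5p, against 105.5, 105.0 and 128 CPM in NC. The groups did not overlap. On the log2 scale the difference was -1 ± 0.33 with an interval from -1.69 to -0.31 (edgeR unadjusted p = 0.00701, adjusted p = 0.858). Tcea1, the cleavage factor TFIIS that rescues stalled polymerase, had 132, 86.7, 112 and 137 CPM in mi699a-5p, against 64.8, 92.2 and 62.1 CPM in NC. Only mi699a-5p replicate 2 fell within the NC range, and the log2 fold change was 0.68 ± 0.26 (edgeR unadjusted p = 0.0168, adjusted p = 0.858).

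The TFIID subunits Taf2 and Taf7 were also among the lowest p-values in mi699a-5p against NC. Taf2, which contacts the initiator element, had 222, 93.4, 100.3 and 219 CPM in mi699a-5p, against 79.5, 94.0 and 98.7 CPM in NC. The mi699a-5p values formed a high and a low pair, and the low pair was close to NC. The high pair, replicates 1 and 4, had 291.4 and 326.9 CPM of Xist, and the low pair, replicates 2 and 3, had 0 CPM. The part of this in the result was not tested beyond 1 fit with the Y-linked level as a term, in which the value was 0.41. Without that term its log2 fold change was 0.81 ± 0.33 (edgeR unadjusted p = 0.0234, adjusted p = 0.861). Taf7, which checks the acetyltransferase activity of Taf1, had 386, 259.6, 286 and 235 CPM in mi699a-5p, against 145, 238 and 188 CPM in NC. These groups overlapped, and the difference on the log2 scale was 0.62 ± 0.26 (edgeR unadjusted p = 0.0279, adjusted p = 0.866). Taf1d gave -0.45 ± 0.21 (edgeR unadjusted p = 0.0434, adjusted p = 0.871), in a gene whose exons overlap several small RNA genes on the same strand, and -0.24 without NC replicate 3. Supt3 of SAGA gave -0.65 ± 0.32 with groups that did not overlap and an unadjusted p of 0.0586 in edgeR.

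The test of any difference among the 4 groups placed 5 members under an unadjusted p of 0.05, where 5.59% of all rows were. They were Taf7 (edgeR unadjusted p = 0.00686), Med20 (0.0116), the tail subunit Med23 (0.0365), Gtf2h4 (0.045) and Med25 (0.0471). The lowest adjusted p among members was 0.8286.

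The 3 members with a let-7 seed match did not pass the test in either let-7 group. Taf13, whose printed match is followed by an A that can pair with let-7e only, had 114.2, 132 and 114.3 CPM in Let7d. It had 130.1, 164, 133 and 122 CPM in Let7e, against 138, 187 and 191 CPM in NC. Let7d lay below NC without overlap, whereas 1 Let7e value was within the NC range. The log2 fold change was -0.52 ± 0.26 in Let7d against NC (edgeR unadjusted p = 0.0667, adjusted p = 1) and -0.32 ± 0.25 in Let7e against NC (edgeR unadjusted p = 0.204, adjusted p = 0.999). In mi699a-5p against NC it was -0.28 ± 0.25. Med8 averaged 60.9 ± 7.97 CPM in Let7d and 74.5 ± 13.8 CPM in Let7e, against 75.7 ± 30.8 CPM in NC. Med10 averaged 353 ± 87.9 CPM in Let7d and 284 ± 78.3 CPM in Let7e, against 299 ± 87.02 CPM in NC. For both genes the groups overlapped.

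Genes outside the rule that work with the same machinery were read from the same fit. Of 46 measured genes of the wider Pol II machinery (cyclin-dependent kinases and cyclins, PAF and FACT subunits, super elongation complex and assembly factors), 0 passed the adjusted threshold in any contrast in edgeR. At an unadjusted p under 0.05 there were 4 higher and 0 lower in Let7d against NC, 2 and 1 in Let7e against NC, 3 and 1 in mi699a-5p against NC, and 1 and 1 in Let7e against Let7d. The shares of all rows were 2.65% and 2.04%, 2.33% and 1.69%, 3.2% and 2.31%, and 2.79% and 2.6%, higher and lower, in this order. Ccnh, the cyclin of the TFIIH kinase, averaged 100 ± 8.98 CPM in Let7d and 101.4 ± 34.0 CPM in mi699a-5p, against 50.9 ± 12.8 CPM in NC (log2 fold changes 0.98 ± 0.34 and 1 ± 0.32, edgeR adjusted p = 0.985 and 0.858). In Let7e Ccnh averaged 61.3 ± 19.6 CPM, a log2 fold change of 0.27 ± 0.31 against NC. Rprd2, which binds the Pol II tail, gave 1.01 ± 0.43 in Let7d against NC and 1.07 ± 0.41 in mi699a-5p against NC. The 3′ end factor Pcf11 gave 0.99 ± 0.34 in Let7e against NC, and Aff1, a scaffold of the super elongation complex, 0.85 ± 0.35 in Let7e against Let7d. Lower at an unadjusted p under 0.05 in edgeR were Wdr61 in Let7e against NC (-0.53 ± 0.21) and Ccnc in mi699a-5p against NC (-0.57 ± 0.27). Ccnh was lower in Let7e against Let7d (-0.71 ± 0.31). Of 30 measured genes of RNA polymerases I and III, 0 passed the adjusted threshold in edgeR, with 0 higher and 1 lower, 2 and 0, 2 and 1, and 0 and 0 at an unadjusted p under 0.05 in the same order of contrasts, beside the shares of all rows just given.

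Between blastomeres the members were detected more evenly than the table as a whole. Of the 87 members, 59 (67.8%) had at least 1 read in all 81 cells, against 34.1% of all rows. At least 10 reads in all cells were found for 50 members, against 2100 of all 7886 rows. The members also had higher levels, with a median of 95.6 CPM per cell against 41.3 CPM over all rows, and detection follows level. The median coefficient of variation (CV) of cells within mouse ids was 0.527, against 0.777 over all rows. Set against the trend of CV on mean level over all rows, 51 of 87 members (58.6%) lay below it, against 49.6% of all rows. By role, 9 of 11 TFIID subunits and 8 of 11 elongation factors were below the trend, and 7 of 13 Pol II subunits. Some roles lay under the share of all rows. They were SL1 with 1 of 4, the Mediator kinase module with 1 of 3, the general factors with 3 of 7 and the Mediator middle with 4 of 9. With every cell thinned to 1575609 reads, 57 members were detected in all cells, a count whose share over all rows is not given here. After thinning 53 members (60.9%) lay below the trend, against 49.4% of all rows. Counts are reads without molecular identifiers, so part of the spread is amplification.

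**Figure D4:**
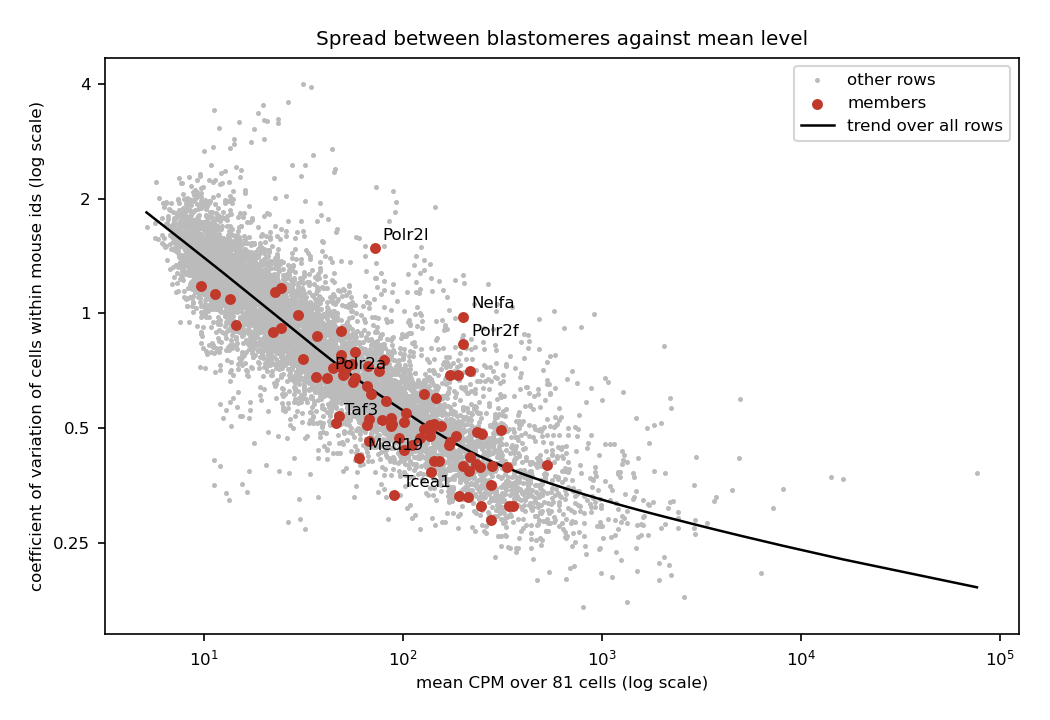
Coefficient of variation of cells within mouse ids against mean CPM over 81 cells (log scales) for the 87 members (red) and the other rows (grey), with the trend over all rows as a line. Polr2l, Nelfa and Polr2f lie far above the line, and Tcea1, Med19 and Taf3 farthest below it.

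The most even members for their level were Tcea1, the Mediator middle subunit Med19 and the TFIID subunit Taf3. Tcea1 had 31.5 CPM in its lowest cell, a median of 85.5 CPM and 206 CPM in its highest, with a CV of 0.333, lower than the trend by a log2 difference of -0.79. Med19 had 6.87, 58.9 and 131 CPM in the same order and a residual of -0.67. Taf3 had no reads in 2 cells, a median of 38.7 CPM and a residual of -0.52.

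The most uneven members were Polr2l, Nelfa and Polr2f, and the 2 highest cells of each were of the mi699a-5p group. The CV was not computed without these cells, so their part in it was not tested. Polr2l, a small subunit shared by the 3 polymerases, had 11.3 CPM in its lowest cell, a median of 54.4 CPM and 988 CPM in its highest, which came from mi699a-5p replicate 1 and held 1589 reads of the gene. The next highest cell, of the same mouse id, had 249.5 CPM. Without the highest cell Polr2l had 97.3 CPM in that mouse id, and 201 CPM with all 6 cells, neither TMM-scaled. Nelfa, a NELF subunit, reached 1626 and 1194 CPM in 2 cells of mi699a-5p replicate 2, against a median of 171 CPM, and the mouse id had 474 CPM with all its 7 cells and 335 CPM without the highest. Polr2f, also shared by the 3 polymerases, reached 1030 CPM in a cell of mi699a-5p replicate 2 and 923 CPM in a cell of replicate 1, against a median of 160.0 CPM. The residuals were 1.25, 0.90 and 1.14 for Polr2l, Polr2f and Nelfa. Exons of Nelfa and of Polr2f overlap an annotated gene on the other strand.

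Polr2a was detected in 78 of 81 cells, with a median of 34.7 CPM and a maximum of 149 CPM in a cell of NC replicate 3. The members detected in the fewest cells were Taf4, in 58 cells, and the Mediator subunit Med30, in 61. Over cells, with the mean of each mouse id taken out, members varied almost independently of each other. The median Pearson correlation over the 3741 pairs was 0.026, and 0.086 over the 78 pairs of Pol II subunits. These are descriptions over 81 cells that share depth and amplification, and values this low in noisy counts are no finding.

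Mouse ids accounted for more of the variance of some subunits than of the typical gene. The variance of log2(CPM + 1) that lay between mouse ids of a group, as a share of that plus the variance within them, had a median of 17.8% over the TFIID subunits, 7.3% over all members and 4.4% over all rows. TFIID was the highest role. Medians under that of all rows were found for TFIIH (1.8%), the Mediator middle (2.4%), kinase module (3.1%) and tail (3.4%), SAGA (3.6%) and the elongation factors (4.1%). Such a share also rises as the spread of cells within mouse ids falls. The CV of those cells had a median of 0.506 over TFIID subunits, 0.527 over all members and 0.777 over all rows. Its part in the difference between the shares was not tested. The highest shares among members were 44.5% for Taf6, 41.1% for Gtf2f1, 32.0% for Med14 and 31.0% for Taf1. Polr2a had 21.2%.

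Taf1, the largest TFIID subunit, and Med14, the backbone of Mediator, are the 2 members on the X chromosome. Mouse ids differed in their level of Xist, the RNA that coats the inactive X, and of Y-linked genes, so both are given beside them. In the 6 mouse ids with over 100 CPM of Xist, Taf1 had 82.0 to 125 CPM (median 94.5), against 25.1 to 132 CPM (median 48.1) in the 8 others. Med14 had 106 to 184 CPM (median 130.2) in the 6, against 36.6 to 128 CPM (median 76.1) in the 8. The ranges overlapped for both genes. The median autosomal member had 92.2 to 104 CPM in the 6 mouse ids and 86.4 to 103.5 CPM in the 8. The summed Y-linked genes were 0.2 to 65.9 CPM in the 6 and 109 to 177 CPM in the 8. The 6 were replicates 2 and 3 of Let7d, 1 of Let7e, 1 and 4 of mi699a-5p and 2 of NC, so the groups are not balanced in this respect. Of the 6, replicates 1 of Let7e, 4 of mi699a-5p and 2 of NC mixed 4, 3 and 4 cells with Xist and 2, 1 and 4 cells with Y-linked reads. The split was drawn after the values had been seen and is not tested. When the Y-linked level entered the model, 0 members passed the adjusted threshold in any of the 4 contrasts.

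**Figure D5:**
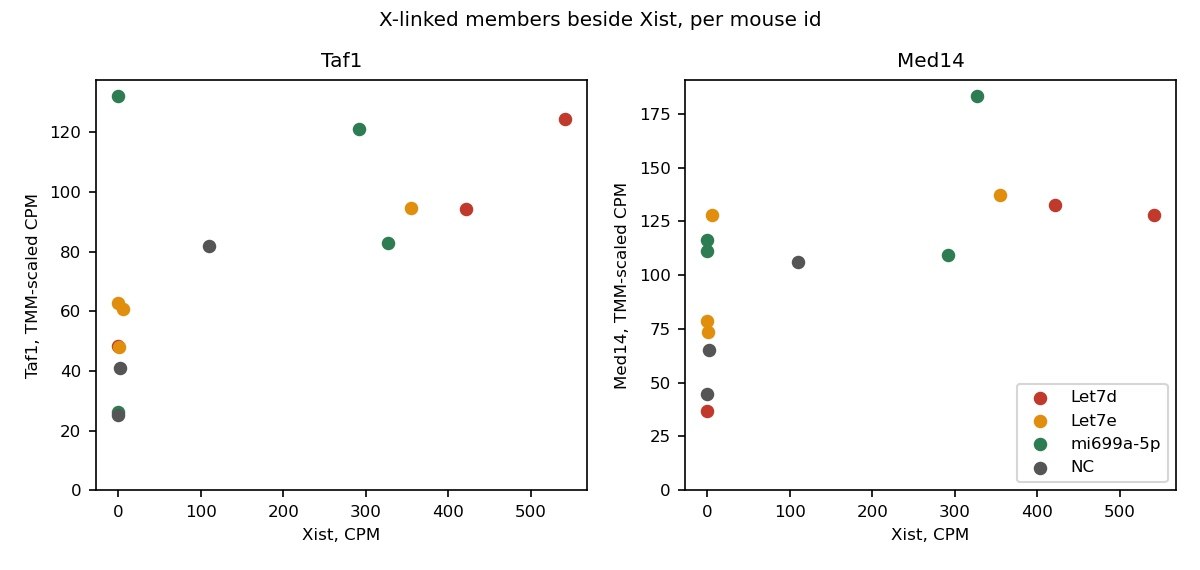
TMM-scaled CPM of Taf1 and Med14 against the CPM of Xist in each of the 14 mouse ids, coloured by group. The 6 mouse ids with over 100 CPM of Xist lie at 82.0 CPM or more for Taf1 and at 106 CPM or more for Med14, while the other 8 spread over a wider range.

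RefSeq promoter windows (GRCm38.p6, 250 bases before to 50 after the start) were matched for 73 members and searched on both strands for 4 short motifs chosen after the results were known. The TATA motif TATAAA occurred in 15.1% of the members' windows, against 6.19% of 6219 windows of the table's rows and 14.2% of all 27025 windows. The ETS motif CCGGAAG occurred in 32.9%, 23.3% and 9.12% in the same order. The NRF1 motif GCGCATGC occurred in 12.3%, 6.56% and 2.81%. The YY1 motif AAGATGG occurred in 19.2%, 8.70% and 6.48%. The median GC content was 59.3%, 61.3% and 52.7%. No test was made of these shares.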

How the data were processed

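Single blastomeres were sequenced by Smart-seq2 with Nextera XT libraries, per the labels' protocols; neither keeps strand, so overlapping genes cannot be told apart. The authors deposited raw read counts per gene and cell for 7886 rows, together with RPKM values. The submitters' processing notes name STAR and the build GRCm38.p6; the counting program is not given in the sources used here. The deposited RPKM values gave implied gene lengths that varied between cells by a median factor of 223.7 and served only for that check.

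The labels describe 92 cells, of which 10 were not analysed here. Of 3321 column pairs, 1 pair (Let7d mouse id 2) differed by about as much as sampling noise, with a chi-square per gene of 1.05. A pair under a chi-square per gene of 2 was counted as 1 cell, leaving 81. Counts were summed per mouse id (6329464 to 24037593 reads) and tested in edgeR (version 4.0.16, under R 4.3.3) after TMM scaling and filterByExpr, with 1 quasi-likelihood fit of 4 groups with 10 residual degrees of freedom, and Benjamini-Hochberg adjustment at 0.05 over all rows, two-sided. DESeq2 1.42.0 and limma 3.58.1 served in the alternatives, of which 23 were fitted. The fit was checked on simulated counts with large changes set in 200 genes, a check that does not cover changes near 2-fold. Levels were divided by GENCODE M21 exon length, available for all 87 members; 7657 of 7886 versioned identifiers were in that release. Counting error alone does not bound these values, since reads are not molecules. Groups may have been handled apart, and a batch that coincides with a group and its injection cannot be told apart.

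Members, gene lists and roles were chosen with earlier results of these data known. Members named for a contrast are those past an adjusted or unadjusted p of 0.05 and the 3 smallest p in each direction. Confidence intervals, seed sites, promoter motifs and the Xist split were added after the results were seen. Whether replicate numbers pair mouse ids was checked.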

Additional observations from a re-analysis of the deposited data

Results flagged for a closer look

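The members named in the contrasts were checked for a mouse id far from the rest in the groups of 4. Of 36 such sets of values, covering 18 members in Let7e and mi699a-5p, 1 stood out, and chance gives about 1.8. Gtf2h4 had 90.7 CPM in Let7e replicate 4, against 79.7 to 80.7 CPM in the other 3 Let7e mouse ids, so the gap arose because those 3 values were close together. The value remained below the NC values of 105.0 to 128 CPM.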

How the results depend on the processing

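The number of members past an adjusted p of 0.05 was 0 in each of the 4 contrasts and in the test of any difference under the 23 alternatives: RLE size factors, DESeq2 (with an adjusted p for 48 to 87 members), a filter of 20 CPM in 3 mouse ids (83 members), no filter (the same fit again, since 0 rows had been filtered), the Y-linked covariate, thinned cells, limma on mean log2(CPM + 1), ribosomal RNA rows left out, each mouse id left out in turn, and the replicate block. Same-numbered mouse ids deviated together no more than others (mean r -0.036 to 0.044, against -0.002). With 1 to 6 pairs per number, this cannot show that the numbers do not pair them. With the replicate block 0 members were called in each contrast. In Let7d against NC that block left 3 higher and 1 lower under an unadjusted p of 0.05 in edgeR. No named member changed direction. NC mouse ids moved the unadjusted counts most: in mi699a-5p against NC there were 8 higher without NC replicate 2 and 0 without NC replicate 1, against 4 with all. The members' median log2 fold change in Let7e against Let7d was 0.08, but -0.04 without Let7e replicate 1 and -0.03 in limma. With the longest transcript as length the median level was 31.8 in place of 25.9 CPM per kilobase, and 8 members moved by over 10 ranks. The highest member was then Polr2h and the lowest Med12l, and the mean of Med13 no longer exceeded that of Med13l. The cause of these shifts was not tested. With 3 or 4 mouse ids a group, the interval reached past a 2-fold change for 30 to 44 of the 87 members.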
